A study of Homo sapiens with 9 samples.

Results

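The enzymes of purine synthesis were followed in P493-6 cells, a human B-lymphocyte line, at 3 labelled levels of MYC. They are PRPS2, PPAT, GART, PFAS, PAICS, ADSL, ATIC, IMPDH1, IMPDH2 and GMPS, and were taken as every probe set of the array whose single gene symbol was one of these names. This gave 26 of the 54675 probe sets and 10 of the 19775 genes named on the array. GART had 9 probe sets, PPAT, PAICS and GMPS had 3 each, PRPS2 and ADSL had 2 each, and PFAS, ATIC, IMPDH1 and IMPDH2 had 1 each.

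RNA was hybridised to 9 single-colour arrays, of which the labels name 4 high Myc, 3 low Myc and 2 no Myc. All groups share the same cell line, which as background is known to carry a tetracycline-repressed MYC gene and an estrogen-dependent form of the Epstein-Barr virus factor EBNA2. The labels state no drug, dose, time or separate culture for any group, so each p-value reflects nothing beyond array-to-array spread within this set, and that spread may be technical. Values are RMA intensities, a scale on which array medians were alike but not identical, so a change in total RNA per cell would not be seen. In such bulk RNA, fewer cells of a type and less RNA per cell cannot be told apart.

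Purine nucleotides are built on ribose. PRPS enzymes make the activated ribose PRPP, PPAT starts the committed pathway, and GART, PFAS, PAICS, ADSL and ATIC carry it on to IMP. IMP is then turned into GMP by IMPDH1 or IMPDH2 followed by GMPS, or into AMP by adenylosuccinate synthetase and, again, ADSL. MYC is a transcription factor that, with its partner MAX, binds the DNA letters CACGTG, called an E-box, and dividing lymphocytes are known to depend on this pathway for DNA and RNA.

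MYC and 2 libraries are given before the enzymes. High Myc arrays had MYC intensities of 11326 to 15404. On the low Myc arrays it was 2126, 2526 and 1443 for replicates 1, 2 and 3. With a MYC intensity of 2803, the library labelled no Myc replicate 1 exceeded all low Myc arrays, which goes against its label, while no Myc replicate 2 had 416. MYC was not called between low and no Myc (a log2 difference of 0.87 ± 0.64 SE, limma adjusted p = 0.484), and these groups overlapped. Low Myc replicate 3 had the lowest signal in the brighter part of the array, with a 95th percentile of log2 intensity of 9.79 against 9.88 to 10.19 on the others. B-cell markers were present on every array. Sums of intensity over 7 of 8 listed genes were 7893 to 14610 in high and 9547 to 11105 in low Myc. In no Myc they were 21525 to 28793. Of these genes, 6 were called lower in high and 4 in low Myc than in no Myc (9% and 8.55% of all genes). Between high and low Myc, 2 were called lower in high Myc (1.27% of all genes). In no Myc, summed intensities of 6 myeloid markers were 1552 to 2405 against 275 to 368 elsewhere. That difference lay in LYZ (775 and 333 on no Myc replicates 1 and 2) and ITGAM (1480 and 1069). T, NK, erythroid and platelet markers had no call. Of 7 fibroblast and epithelial markers, CDH1 was called, as higher in low than in no Myc. The 3′ minus 5′ log2 signal of GAPDH, a sign of RNA quality, was 0.25 and 0.42 in no Myc and 0.01 to 0.24 elsewhere. The part of these values in the results was not tested.

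PPAT and PAICS are neighbours that are read in opposite directions from starts 137 bases apart, so the stretch between them is shown as their shared promoter. It is given with the upstream stretch of ATIC, as these 3 genes held CACGTG in a RefSeq promoter window. The windows span 250 bases before to 50 after a start, in build GRCh38.p14, and 12 windows matched 8 of the enzymes. PAICS also had windows at other starts, chr4:56410257-56410556 and chr4:56436010-56436309, without CACGTG. The stretch between the starts of PPAT and PAICS is chr4:56435616-56435751 on the plus strand, 136 bases without CACGTG, with 75.0% G or C.
PPAT to PAICS: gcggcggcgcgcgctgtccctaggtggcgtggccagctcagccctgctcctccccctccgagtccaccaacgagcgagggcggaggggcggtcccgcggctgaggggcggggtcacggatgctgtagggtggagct
The stretch before ATIC is chr2:215311809-215312058, on the plus strand, with CACGTG in capitals.
ATIC upstream: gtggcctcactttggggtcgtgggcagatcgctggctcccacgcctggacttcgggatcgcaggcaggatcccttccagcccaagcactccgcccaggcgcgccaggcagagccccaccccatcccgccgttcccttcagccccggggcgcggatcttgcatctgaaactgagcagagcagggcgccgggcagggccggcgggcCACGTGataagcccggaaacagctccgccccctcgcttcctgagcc

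The E-box letters of PPAT and PAICS were a single shared site. It lay at chr4:56435792-56435797, which begins 182 bases upstream of the PPAT start. Counted from the PAICS start nearest to PPAT, it begins at base 41 of the transcript. The ATIC window held 2 sites, beginning 46 bases upstream of its start and at base 30 of its transcript. Each site is shown within 30 bases, in the direction of the named gene, with the 6 letters in capitals.
PPAT site, chr4:56435780-56435809, minus strand: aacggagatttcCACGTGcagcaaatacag
ATIC upstream site, chr2:215312001-215312030, plus strand: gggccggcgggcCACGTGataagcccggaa
ATIC transcript site, chr2:215312076-215312105, plus strand: ctcctacctgcgCACGTGgtgccgccgctg
CACGTG reads the same on both strands, so a single search covers both. It was present in windows of 3 of the 8 matched enzymes, against 2396 of all 27305 genes with a window (8.77%). The shared site was counted for both PPAT and PAICS. ADSL and IMPDH2 had no window. In the windows of PRPS2, GART, PFAS, IMPDH1 and GMPS the letters CACGTG were not found, which says nothing of sites elsewhere.

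All 10 enzymes were higher in high than in no Myc, and each high Myc array lay above both no Myc arrays for each of them. The rise ran from 2.34-fold for GART to 7.77-fold for PFAS. The median log2 difference was 1.98, against -0.01 over all genes. With limma, 10 of 10 passed at an adjusted p under 0.05, where 14.2% of all genes were called higher, and 20.6% had groups without overlap in that direction. When the library labelled no Myc replicate 1 was left out, 9 of 10 passed, and PRPS2 did not.

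**Figure D1:**
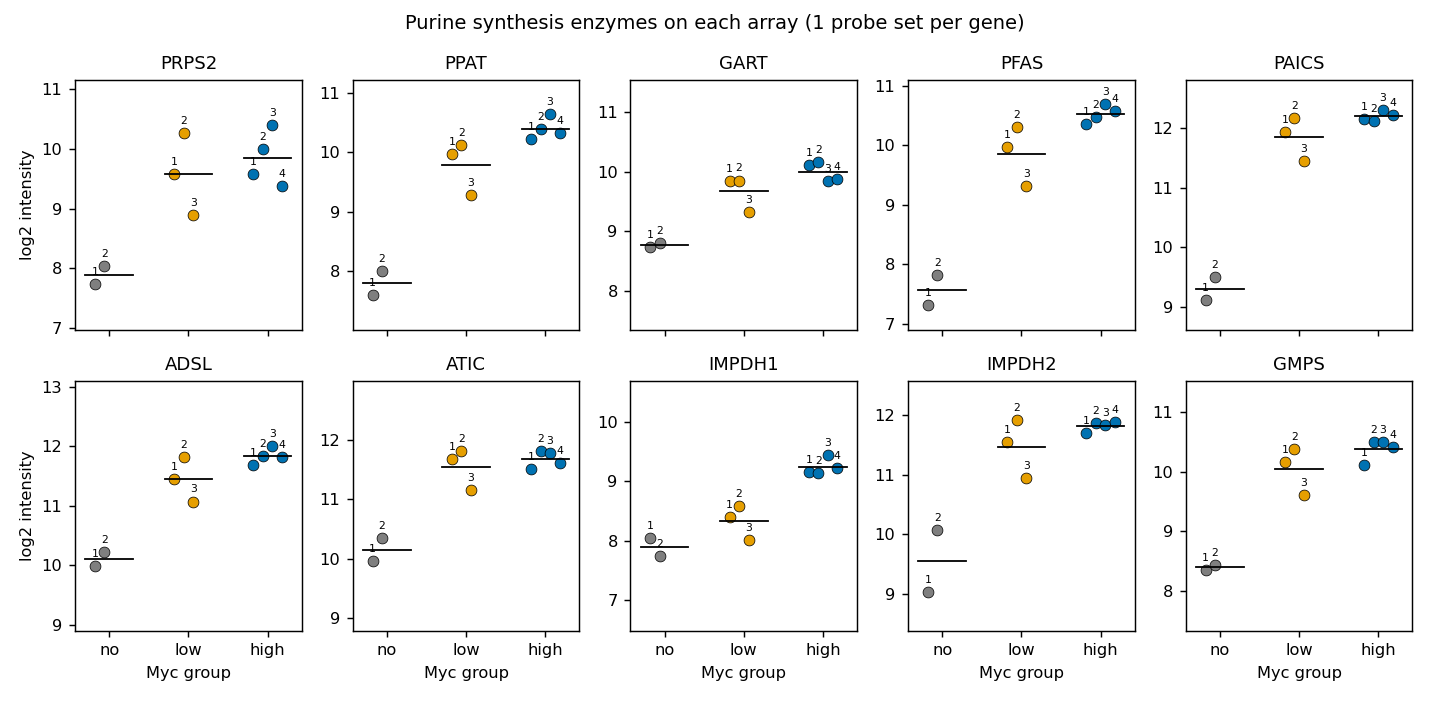
Each panel plots log2 intensity (y axis, all panels spanning the same height) of an enzyme on each array by Myc group (x axis), with replicate numbers beside the points and bars for group means. High Myc lies above no Myc in all 10 panels, low Myc replicate 3 is the lowest low Myc array in all 10, and IMPDH1 alone has its low Myc arrays overlapping no Myc.

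PRPS2, which makes PRPP, read 763, 1023, 1352 and 669 on high Myc replicates 1 to 4. On low Myc it read 763, 1234 and 473, and on no Myc 212 and 261. High and low Myc overlapped, and both lay above no Myc. PRPS2 was 3.90-fold higher in high than in no Myc (a log2 difference of 1.96 ± 0.38 SE, with limma's adjusted p = 0.00484). In low Myc it was 3.25-fold above no Myc (1.70 ± 0.40, limma adjusted p = 0.016). The PRPS2 call against no Myc rests on few arrays. In high Myc it was lost when the library labelled no Myc replicate 1 was left out (1.81, adjusted p = 0.0573). In low Myc it was lost without either no Myc array (1.55 and 1.85, adjusted p = 0.126 and 0.0591). The other PRPS2 probe set, 203401_at, gave 2.07 ± 0.27 and 1.67 ± 0.28.

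PPAT, the amidotransferase of the committed step, was among the enzymes with the larger differences. PPAT read 1198, 1339, 1597 and 1285 in high Myc, 1007, 1118 and 620 in low Myc, and 194 and 257 in no Myc. The 3 groups did not overlap. PPAT stood 6.03-fold above no Myc in high Myc (a log2 difference of 2.59 ± 0.24) and 3.97-fold above it in low Myc (1.99 ± 0.25), with limma adjusted p = 0.000173 and 0.00105.

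GART, a single protein with 3 enzyme activities of the pathway, had the smallest of the 10 rises between high and no Myc. GART read 1103, 1140, 914 and 935 in high Myc, 916, 923 and 643 in low Myc, and 424 and 446 in no Myc. The differences from no Myc were 1.23 ± 0.17 in high Myc and 0.91 ± 0.18 in low Myc (log2, adjusted p = 0.000864 and 0.00678). The second call was lost when the library labelled no Myc replicate 1 was left out (0.87, adjusted p = 0.0617). With the median of the 9 GART probe sets, neither was called (1.02 and 0.64, adjusted p = 0.0504 and 0.283).

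PFAS, which acts between activities of GART, and PAICS, which acts after them, had the largest differences from no Myc. PFAS read 1306, 1430, 1654 and 1524 in high Myc, 1002, 1264 and 635 in low Myc, and 159 and 226 in no Myc, without overlap between any groups. PAICS read 4562, 4440, 5066 and 4786 in high Myc, 3893, 4602 and 2785 in low Myc, and 554 and 720 in no Myc. Both low and high Myc stood well apart from no Myc in PAICS, while low Myc replicate 2 lay within the high Myc range. Against no Myc, PFAS was 2.96 ± 0.26 higher in high Myc and 2.29 ± 0.27 higher in low Myc. PAICS was 2.90 ± 0.19 and 2.54 ± 0.20 higher (limma adjusted p from 8.83e-05 to 0.000876 over these 4 differences). Of all genes, 0.172% had a larger positive difference than PFAS between high and no Myc.

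ADSL and ATIC, which carry the ring to IMP, rose by smaller folds. ADSL read 3281, 3668, 4112 and 3623 in high Myc, 2780, 3610 and 2149 in low Myc, and 1018 and 1188 in no Myc. ATIC read 2928, 3604, 3500 and 3119, then 3276, 3591 and 2287, then 1000 and 1300 in the same groups. For both, high and low Myc overlapped and stayed above no Myc. ADSL was 3.33-fold higher in high Myc and 2.53-fold in low Myc than in no Myc, and ATIC 2.87-fold and 2.63-fold. All 4 differences passed the test (adjusted p from 0.000352 to 0.00209).

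On the GMP branch, IMPDH2 and GMPS followed the same course. IMPDH2, the isozyme known to rise with lymphocyte growth, read 3337, 3732, 3656 and 3776 in high Myc and 3003, 3890 and 1969 in low Myc. It read 525 on the library labelled no Myc replicate 1 and 1084 on no Myc replicate 2, the widest gap between these arrays among the enzymes. IMPDH2 was 2.26 ± 0.31 higher in high than in no Myc on the log2 scale, and 1.74 when that replicate 1 was left out (limma adjusted p = 0.000877 and 0.0106). In low Myc it was 1.91 ± 0.33 higher than in no Myc (adjusted p = 0.00363). GMPS, which makes GMP from XMP, read 1107 to 1449 in high Myc, 777 to 1335 in low Myc, and 326 and 347 in no Myc. GMPS was 3.97-fold higher in high Myc and 3.15-fold higher in low Myc than in no Myc.

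Low Myc cells held most of these enzymes far above no Myc, with IMPDH1 as the exception. Against no Myc, 9 of 10 enzymes rose in low Myc (limma, all genes called higher 11.3%) and the same 9 had groups without overlap (20% of all genes). The median log2 difference was 1.68, against 0.00 over all genes. The count was 7 when the library labelled no Myc replicate 1 was left out, with PRPS2 and GART not called, and 10 without low Myc replicate 3. High and low Myc were each set against the same 2 no Myc arrays, so these counts are not independent.

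IMPDH1, the other IMP dehydrogenase, read highest on the high Myc arrays. IMPDH1 read 571, 565, 695 and 596 in high Myc. It read 336, 384 and 258 in low Myc, and 265 and 214 in no Myc. The high Myc arrays lay above all others, and low Myc replicate 3 fell between the no Myc arrays. Between high and no Myc the IMPDH1 difference was 1.35 ± 0.17 on the log2 scale, or 2.54-fold (limma adjusted p = 0.000623). Between high and low Myc it was 0.91 ± 0.15, or 1.88-fold (limma adjusted p = 0.017).

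The IMPDH1 difference between low and no Myc was 0.44 ± 0.18 (95% interval 0.03 to 0.84, limma adjusted p = 0.142). It passed the test without low Myc replicate 3 (0.60, adjusted p = 0.0255) and on repeating quantile normalization (0.45, adjusted p = 0.0487). The call between high and low Myc was lost in 3 of the 9 fits that each left out an array. The difference was 0.84 without high Myc replicate 3 (adjusted p = 0.0549), 0.92 without high Myc replicate 4 (0.0563) and 0.94 without low Myc replicate 1 (0.0566).

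**Figure D2:**
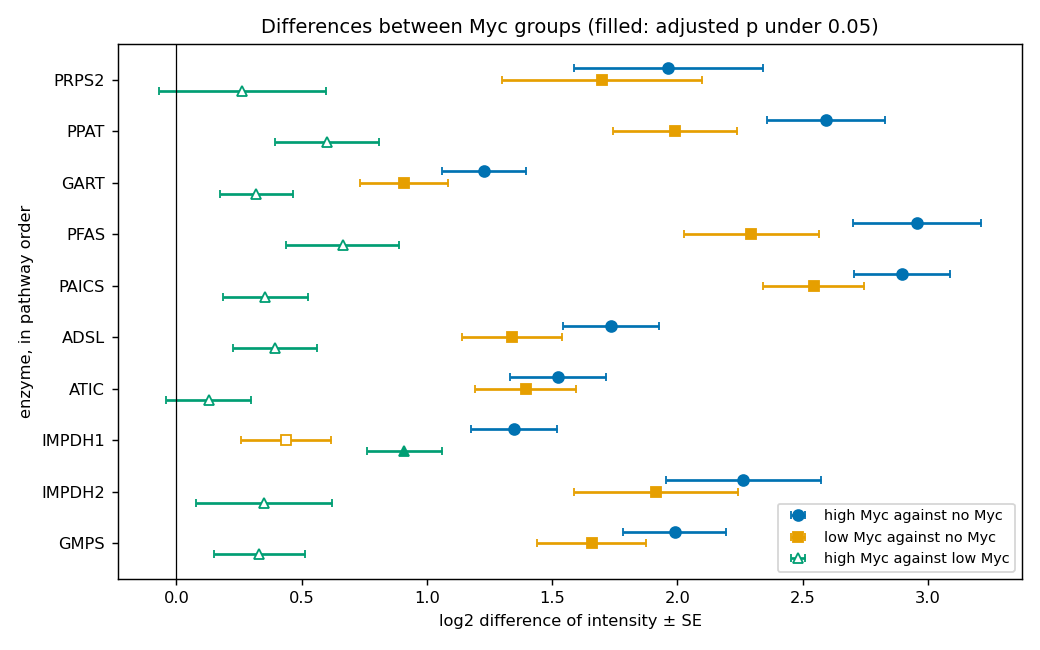
Log2 differences of intensity (x axis) with SE as bars are plotted for the 10 enzymes in pathway order (y axis) in the 3 comparisons, filled where the limma adjusted p was under 0.05. High and low Myc differ from no Myc by 0.91 or more in each enzyme other than IMPDH1, which is also the only filled point between high and low Myc.

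Between high and low Myc, 1 of 10 enzymes passed the test, IMPDH1, where 2.33% of all genes were called higher. With the replicate numbers as a block in the fit, IMPDH1 was not called (0.92, limma adjusted p = 0.11). PPAT, PFAS and IMPDH1 had groups without overlap (8.06% of all genes in that direction). The median log2 difference was 0.35, against 0.00 over all genes. PFAS was 0.66 ± 0.23 (95% interval 0.15 to 1.17) and PPAT 0.60 ± 0.21 (0.13 to 1.07) higher in high Myc, with limma adjusted p = 0.161 and 0.168. The intervals of GART, PAICS, IMPDH2 and GMPS ran from -0.01, -0.03, -0.27 and -0.08 to 0.65, 0.74, 0.97 and 0.74. Those of PRPS2 and ADSL ran from -0.49 to 1.02 and from 0.01 to 0.77. ATIC had the smallest difference, 0.13 (-0.26 to 0.51). An adjusted p above 0.05 here does not show that high and low Myc held these enzymes at the same level.

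The low Myc arrays themselves differed in the enzymes. Low Myc replicate 3 was the lowest and replicate 2 the highest of the low Myc arrays in all 10, and replicate 3 lay below every high Myc array in all 10. Across the enzymes, replicate 2 exceeded replicate 3 by a median log2 of 0.76 and replicate 1 exceeded it by 0.54, against 0.00 and 0.05 over all genes. In 7 of the 10 enzymes, low Myc replicate 2 was at or above the lowest high Myc array. Without low Myc replicate 3 the median difference between high and low Myc was 0.15 in place of 0.35, and without low Myc replicate 2 it was 0.58. Without replicate 3, PRPS2 and ATIC had higher means in low Myc (-0.08 and -0.07, not called), while IMPDH1 was still called (0.75, adjusted p = 0.0309). Low Myc replicate 3 also had the lowest MYC of the low Myc arrays and the lowest 95th percentile, and their part in this was not tested.

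The arrays labelled no Myc differed as well. In 9 of 10 enzymes, the library labelled no Myc replicate 1 was the lower, although its MYC was the higher of the pair. The exception was IMPDH1. Across the enzymes replicate 1 was lower by a median log2 of 0.34, with IMPDH2 at the far end (-1.05). Group SDs of log2 intensity over the enzymes were 0.08 to 0.45 in high Myc, 0.29 to 0.69 in low Myc and 0.05 to 0.74 in no Myc.

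Single probe sets are given next, since a gene above stands for its brightest. Of the 26 probe sets, fitted among all 54675, 22 were higher in high than in no Myc (9.24% of all probe sets), 18 in low than in no Myc (6.73%) and 1 in high than in low Myc (1.04%). All 18 probe sets with a mean log2 intensity of 7 or more were called between high and no Myc. Of the 8 dimmer ones, 4 were called. The dim PPAT probe set 235833_at read 57 to 78 on all 9 arrays and differed by -0.04 ± 0.13, while the bright 209434_s_at gave 2.72 ± 0.19. The second PAICS probe set, 201014_s_at, read 2635, 3199, 3260 and 2700 in high Myc, 2620, 2871 and 1531 in low Myc, and 258 and 300 in no Myc. Its 10.5-fold rise between high and no Myc was above the 7.45-fold of the brightest set. The dim PAICS set 214664_at rose 2.06-fold (1.04 ± 0.30, adjusted p = 0.048) and was not called between low and no Myc (0.50 ± 0.32, adjusted p = 0.45).

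GART had 9 probe sets, from 0.20 to 1.96 between high and no Myc. GART probe set 212378_at rose by 1.77 ± 0.21, 210005_at by 1.96 ± 0.29 and 217445_s_at by 1.84 ± 0.40 between high and no Myc, all above the 1.23 of the brightest, 212379_at. GART 230097_at and 230766_at rose by 1.08 ± 0.18 and 0.66 ± 0.18. GART 236969_at (0.43 ± 0.17), 244822_at (0.37 ± 0.25) and 216990_at (0.20 ± 0.12) did not pass, and the last of these read 15 to 21 on all arrays. ADSL had 2 bright sets with 1.73 ± 0.19 and 1.92 ± 0.21. The second, 210250_x_at, carries an array suffix for probes that may match other sequences. GMPS 229333_at and 236648_at rose by 1.52 ± 0.16 and 0.36 ± 0.08.

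**Figure D3:**
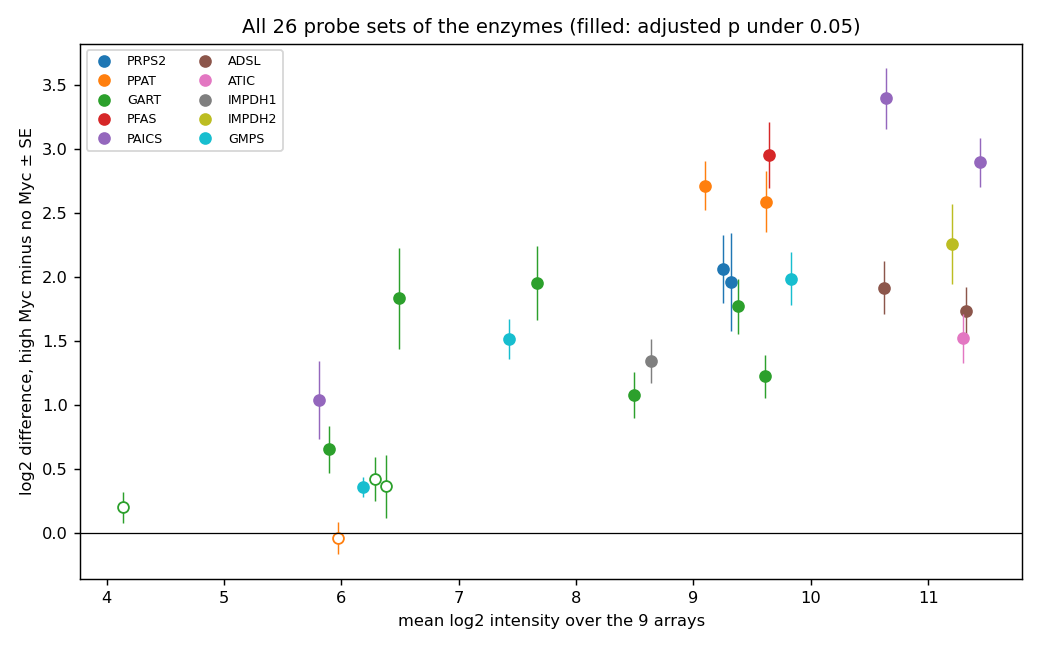
The log2 difference between high and no Myc with SE (y axis) is plotted against the mean log2 intensity over 9 arrays (x axis) for the 26 probe sets, coloured by gene and filled where the adjusted p was under 0.05. All 18 probe sets at a mean of 7 or more are filled, and the 4 open points lie below it, at differences of -0.04 to 0.43.

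Related enzymes were also compared in pairs. Since levels of different probe sets cannot be compared, the log2 difference within each array was compared between groups, in 9 comparisons. IMPDH2 minus IMPDH1 was 2.58 ± 0.14 (SD, n = 4) in high Myc, 3.14 ± 0.21 (SD, n = 3) in low Myc and 1.67 ± 0.96 (SD, n = 2) in no Myc. It was thus 0.56 lower in high than in low Myc, without overlap, and ran from 0.46 to 0.67 lower when single arrays were left out. PAICS minus PPAT, the pair with the shared promoter, was 1.81 ± 0.13, 2.05 ± 0.11 and 1.50 ± 0.02 in high, low and no Myc (SD, n = 4, 3 and 2), again without overlap. PRPS2 minus PRPS1 was -0.73 ± 0.43, -0.61 ± 0.42 and -1.56 ± 0.08 in the same order, with high and low Myc overlapping.

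By a two-sided exact permutation test over arrays, the p was 0.0571 for the first of these pairs and for PAICS minus PPAT between high and low Myc. That is the smallest p that 4 arrays against 3 allow. The adjusted p over the 9 exact tests was 0.225 or more in each. Against no Myc the smallest p possible was 0.133 for high and 0.2 for low Myc, so these exact tests could not reach 0.05. With the median of each gene's probe sets, PAICS minus PPAT differed from no Myc by 0.68 in high and 0.89 in low Myc, in place of 0.31 and 0.55.

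**Figure D4:**
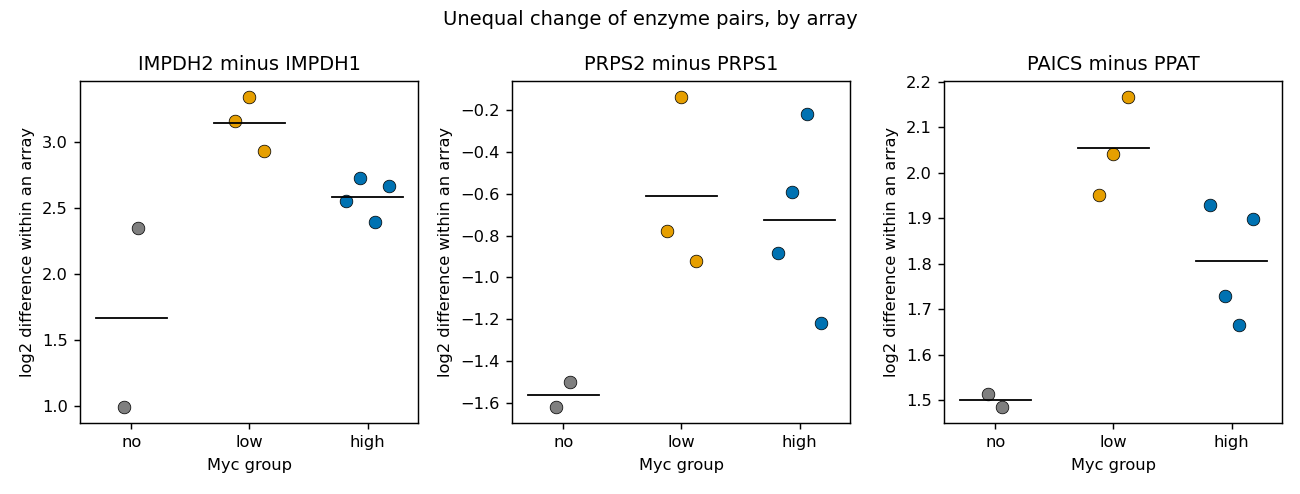
Each point is the log2 difference between the enzymes of a pair on an array (y axis, scaled per panel) by Myc group (x axis), with bars for group means. IMPDH2 minus IMPDH1 and PAICS minus PPAT have their highest values in low Myc, with means of 3.14 and 2.05.

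The other genes of purine metabolism were listed by role, 59 in all, of which 52 had a probe set with a single symbol. Between high and no Myc 23 rose and 4 fell (14.2% and 9% of all genes), and between low and no Myc 17 rose and 5 fell (11.3% and 8.55%). Between high and low Myc 5 rose and none fell (2.33% and 1.27%). That count was 4 with replicate 2 of either group left out, 2 or 3 with any other array left out, 1 with the median of each gene's probe sets and 7 with array weights. The medians of the 52 were 0.27, 0.13 and 0.17, against 1.98, 1.68 and 0.35 for the 10 enzymes.

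**Figure D5:**
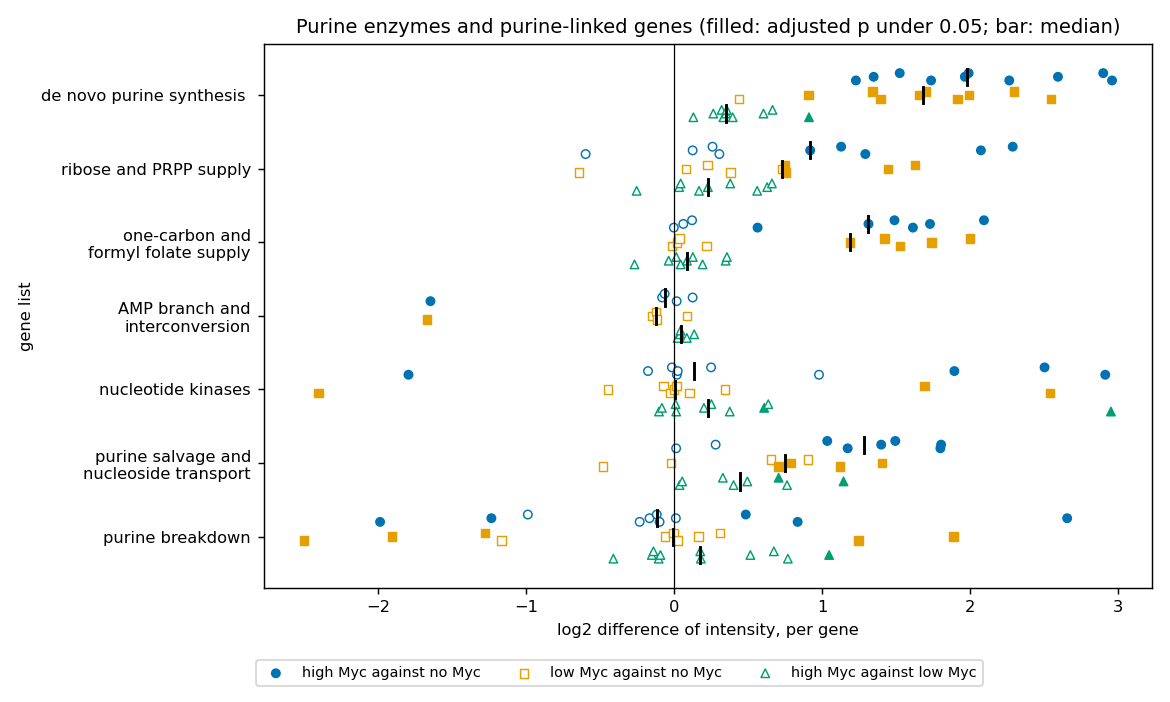
Log2 differences per gene (x axis) are plotted by gene list (y axis) in the 3 comparisons, filled where the limma adjusted p was under 0.05, with a bar at each median. The purine enzymes have medians of 1.98 and 1.68 against no Myc in high and low Myc, and the AMP branch and purine breakdown have medians between -0.12 and -0.01 against no Myc. ADSS2 and GMPR2 of the AMP branch were not measured.

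Genes that supply ribose and PRPP rose in part. Of 9 measured, 5 rose in high and 4 in low Myc against no Myc (14.2% and 11.3% of all genes), with medians of 0.92 and 0.73. RPIA, which makes ribose 5-phosphate, was 4.88-fold and TKT, transketolase, 4.20-fold higher in high Myc, and 3.09-fold and 2.72-fold higher in low Myc. RPE, an epimerase of the pentose phosphate pathway, rose 2.45-fold in high Myc and PGD, a dehydrogenase of that pathway, 1.68-fold in low Myc. PRPS1, the other widely expressed PRPP synthetase, read 1406 to 1570 in high, 896 to 1354 in low, and 651 and 740 in no Myc. It rose 2.18-fold in high Myc and 1.68-fold in low Myc. Without no Myc replicate 2, the calls of RPE in high Myc and TKT in low Myc were lost (adjusted p = 0.0548 and 0.0535). In low Myc, PGD and PRPS1 were lost without no Myc replicate 1 (0.111 and 0.13), and PRPS1 also without low Myc replicate 1 (0.0524). PRPSAP1 and PRPSAP2, proteins bound to PRPP synthetase, differed by 0.30 and 0.12 between high and no Myc and were not called (adjusted p = 0.119 and 0.731). In low Myc the list had 2 risers with that no Myc replicate 1 left out and 6 without low Myc replicate 3.

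Transcripts of several genes tied to folate-bound carbon, which GART and ATIC consume, were higher than in no Myc. Folates themselves were not measured. Of 9 measured genes 6 rose in high and 5 in low Myc against no Myc (14.2% and 11.3% of all genes). Their medians were 1.31 and 1.19. SLC19A1, the reduced folate carrier, was 4.26-fold higher in high and 3.33-fold higher in low Myc. GGH, a hydrolase of folate polyglutamates, was 3.31-fold and 3.99-fold higher. The mitochondrial SHMT2 and the cytosolic MTHFD1, which makes formyl folate, rose 3.06-fold and 2.80-fold in high Myc, and 2.68-fold and 2.88-fold in low Myc. Between high and low Myc, 0 of these 9 were called by limma, with 1 at an unadjusted p under 0.05, as were 16.5% of all genes.

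On the AMP side, 1 of 5 measured genes was called, as lower in high and in low than in no Myc (9% and 8.55% of all genes). AMPD3, an AMP deaminase, fell to 0.319 times its no Myc level in high Myc and 0.314 times in low Myc. AMPD3 read 636 and 744 in no Myc and 176 to 304 on the 7 other arrays. ADSS1, the adenylosuccinate synthetase known from muscle, read 88 to 107 on all arrays and differed by 0.12 between high and no Myc (adjusted p = 0.451). AMPD1 and GMPR were dim, at 24 to 40 and 29 to 38 on all arrays. ADSS2 and GMPR2, also on this list, had no probe set with a single symbol. The list therefore cannot show whether the step from IMP toward AMP changed.

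Nucleotide kinases moved in both directions. NME1, a nucleoside diphosphate kinase, rose 7.53-fold in high and 5.80-fold in low Myc against no Myc, and AK6 3.71-fold and 3.23-fold. AK4, a mitochondrial adenylate kinase, read 2090, 2276, 2724 and 2296 in high Myc, 384, 215 and 335 in low Myc, and 436 and 390 in no Myc. The high Myc arrays lay far above the rest. AK4 was 5.66-fold higher in high than in no Myc and 7.73-fold higher than in low Myc, and kept that call in all 9 fits that left out an array. AK1, a cytosolic adenylate kinase, read 646 and 681 in no Myc, 168 to 222 in high and 105 to 148 in low Myc. It fell by 1.80 and 2.40 on the log2 scale against no Myc and was 0.61 higher in high than in low Myc, a call lost in each of the 9 fits.

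Salvage genes rose with high Myc in 6 of 8 cases and with low Myc in 4 of 8, against no Myc (14.2% and 11.3% of all genes). HPRT1, which recovers hypoxanthine and guanine with PRPP, read 2920 to 3636 in high, 1793 to 2910 in low, and 916 and 917 in no Myc. It rose 3.49-fold and 2.64-fold. APRT, its counterpart for adenine, was 1.03 and 0.71 higher (log2, adjusted p = 0.00293 and 0.029), the latter lost in 4 of 9 fits that left out an array. ADK, adenosine kinase, rose 2.81-fold and 1.73-fold, the latter lost without no Myc replicate 1 (adjusted p = 0.099). It was 1.63-fold higher in high than in low Myc, a call lost in 5 of the 9 fits. MTAP, which recovers adenine from methylthioadenosine, was 3.48-fold higher in high than in no Myc and 2.21-fold higher than in low Myc, the latter lost in 7 of the 9 fits. The nucleoside transporters SLC29A1 (2.64-fold in high Myc) and SLC29A2 (2.17-fold in low Myc) were lost in 1 and 6 of them. In low Myc the list had 1 riser with no Myc replicate 1 left out and 6 without low Myc replicate 3.

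Genes of purine breakdown were split. Of 11, 3 rose and 2 fell in high Myc against no Myc (14.2% and 9% of all genes). In low Myc, 2 rose and 3 fell (11.3% and 8.55% of all genes). PNP, purine nucleoside phosphorylase, read 986 to 1226 in high, 356 to 929 in low, and 150 and 198 in no Myc, rising 6.30-fold and 3.70-fold. ADA2, a secreted adenosine deaminase, and SAMHD1, which degrades deoxynucleotides, fell by 1.99 and 1.24 in high Myc and by 2.50 and 1.91 in low Myc (log2). ADA, the intracellular deaminase, was 0.83 higher in high Myc (adjusted p = 0.0493), a call lost in 7 of the 9 fits. Its mean log2 intensity was highest in low Myc, at 8.74 against 8.33 in high and 7.50 in no Myc. The ADA call between low and no Myc was lost in 1 of the 9 fits. NT5C2, a cytosolic nucleotidase that acts on IMP, was low in low Myc, at 136 to 167 against 230 to 367 in high Myc and 363 and 367 in no Myc. Its difference between high and low Myc was 1.05 (adjusted p = 0.0147), and 1 of the 9 fits lost it, that without low Myc replicate 1. With no Myc replicate 1 left out the risers were 1 in high and 1 in low Myc.

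Across the 9 arrays, the log2 values of the enzymes ran together. Over the 36 pairs without IMPDH1, Pearson's r was 0.90 to 0.998, and over the 9 pairs with it 0.74 to 0.85, as a description, since the arrays fall into groups. The genes outside the 10 enzymes whose values were most like their mean were EIF3I, a translation initiation subunit, SNRPE, a spliceosome protein, WDR12 and NOP16, both of ribosome assembly, and LMAN1, a cargo receptor of the secretory pathway. Their r over 9 arrays was 0.997 to 0.999. Pearson's r does not measure the size of a change, which differed among these genes. EIF3I read 2785 to 2992 in high, and 1431 and 1605 in no Myc. NOP16 read 2342 to 3252 in high, 1368 to 2572 in low, and 320 and 445 in no Myc.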

How the data were processed

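RNA of P493-6 cells was measured on 9 single-colour arrays. The authors deposited 1 intensity per probe set on a linear scale, made with RMA per the submitters' processing notes; its version and the genome build are not given in the sources used here. Array medians were 75.3 to 80.3. All calculations used log2 of that deposited intensity, without a detection call. Precision is limited by how few arrays there are.

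Genes were assigned through the array platform's annotation (41097 probe sets with 1 symbol, 1801 with several, 11777 with none), and 41043 symbols were updated through the Entrez identifier. A gene was represented by its probe set with the highest mean log2. Group means were fitted to all 9 arrays with limma 3.58.1 in R 4.3.3 (lmFit, eBayes, two-sided), adjusted by the Benjamini-Hochberg method over all genes or all probe sets, and called at an adjusted p under 0.05. Intervals are those of the fit at 95%. The procedure was tested on simulated data, drawn independently for each gene and array. Those data held no array-wide shift and no wrong label, so the test cannot speak to such problems. Within-array differences of paired enzymes were compared by exact permutation in R 4.3.3, and promoter windows were searched in Python 3.11.15.

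Named were all 10 enzymes, MYC, up to 4 called genes per list and comparison, the partners PRPS1, PRPSAP1, PRPSAP2, ADSS1, HPRT1 and APRT, and 5 genes by likeness. LYZ, ITGAM and CDH1, from the marker lists, were named after their values were seen. The enzymes and lists were chosen with earlier results of these data known. Alternatives were another normalization, filter, probe set rule, prior, array weights, sample choice, replicate block, threshold, and each array left out. Leaving out 2 libraries together, and the alternatives for probe sets and pairs, were added after seeing the data.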

Additional observations from a re-analysis of the deposited data

Results flagged for a closer look

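APRT, the salvage enzyme for adenine, had an intensity of 1326.3 on high Myc replicate 3, while the nearest of the 3 other high Myc arrays had 1566. It stood out because this gap filled most of the group's range. In the same check, 0 of the 26 probe sets of the purine enzymes and 1 of 53 other genes, MYC included, had such an array. By chance about 1 in 20 groups of values would.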

How the results depend on the processing

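The 10 enzymes were recomputed under 19 alternatives in each comparison. Of 570 values, 551 kept their direction and their side of the threshold. The enzymes called were 9 to 10 between high and no Myc, 7 to 10 between low and no Myc and 0 to 1 between high and low Myc, also over the fits that left out an array, and their probe sets 17 to 22, 12 to 19 and 0 to 1. Between high and low Myc, IMPDH1 was not called with the replicate block (0.92, adjusted p = 0.11) or at an adjusted p under 0.01, so 0 enzymes and 0 probe sets were called, and 0 probe sets without low Myc replicate 3 and no Myc replicate 1 together. PRPS2 and ATIC turned to -0.0815 and -0.0661 without low Myc replicate 3, alone or with no Myc replicate 1, and ranged up to 0.6094 and 0.2594 without other single arrays.

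The 5 purine-linked genes called between high and low Myc were 1 when each gene took its probe sets' median, 3 with only the 2 groups compared, 2 with the replicate block, 1 at an adjusted p under 0.01, 1 without both libraries, 2 to 4 without single arrays, and 7 with array weights. Between low and no Myc these counts were 16 to 29 and between high and no Myc 24 to 28 without single arrays. PAICS minus PPAT moved to 0.68 (high against no Myc) and 0.89 (low against no Myc) with the median of the probe sets. On every array that median was 201014_s_at for PAICS and 209434_s_at for PPAT, in place of each gene's brightest set. Repeated quantile normalization lowered the enzymes' median between high and low Myc from 0.35 to 0.24. Whether the replicate numbers pair the arrays is not known. Same-numbered arrays had correlations of their deviations from -0.32 to 0.47, and other pairs from -0.47 to 0.44. Of 9 arrays, 3 correlated best with their own number. The deviations of 2 no Myc arrays mirror each other by construction, so pairs with a no Myc array cannot decide it. Between high and low Myc, same-numbered arrays had 0.25, 0.03 and -0.32 for replicates 1, 2 and 3. The highest value there was 0.44, for high Myc replicate 3 with low Myc replicate 2. With so few arrays, these values do not settle whether the numbers are pairs. The block changed no other enzyme's call. With a no Myc array left out, the spread of the remaining one was taken from the other groups.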
